A study of Mus musculus with 8 samples.

Results

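Foxc2 is one of a cluster of forkhead genes on mouse chromosome 8, and its methylation was followed here in primary tumors and lung metastases of the 4T1 model. The members were chosen by position, as every measured site on chromosome 8 from 123.6 to 123.65 Mb in the deposited coordinates. This gave 113 of the 136069 sites in the table. All 113 lay in 1 region of 2609 bp, from 123638488 to 123641096, over the upstream side and the first part of Foxc2. Foxf1, the other gene the window was drawn for, held 0 sites within its body and 2000 bp on either side, so its methylation was not measured and all values below are of Foxc2. The window was proposed because an earlier look at these data had shown the region lower in lung metastases than in primary tumors. Differences between the groups at these sites are therefore given as a description, with no p-value for the region.

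The study measured methylation by bisulfite sequencing of genomic DNA from 4T1 mammary tumor cells, a carcinoma line first grown from a BALB/c mouse and known for lung metastasis. There were 2 primary mammary tumors labelled MFP, 3 lung metastases labelled MFP and 3 lung metastases labelled TVI, with no other treatment, age or allele in the labels. MFP and TVI are kept as written, no tumor was labelled TVI, and the labels do not say if each sample is from its own animal. Each value is the percentage of calls at a site that were methylated. The read depth behind the values is unknown. The mean over all 136069 sites was higher in each of the 6 metastases than in either tumor, from 66.6% in primary tumor 2 to 68.7% in TVI metastasis 1. The median difference over all tested sites between all metastases and the tumors was 0.55 points.

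Forkhead proteins are transcription factors that bind DNA through a winged-helix domain. Foxc2 and its close relative Foxc1 act in the formation of blood and lymphatic vessels and in other tissues of mesodermal origin, and Foxc2 is also known for its part in epithelial-mesenchymal transition, in which carcinoma cells lose cell contacts and gain motility. Foxf1 is a target of Hedgehog signalling and is needed for the mesenchyme and vessels of the lung. Methylated CG at the start of such a gene is usually found together with low transcription, but no RNA was analysed here.

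The genome build of the positions was checked first. They were not those of GRCm38, although the submitters' processing notes name mm10. On chromosome 7, 557 of 3166 sites lay beyond the last gene end of GRCm38 (145324059). The spacing of the sites was then set against the CG positions in RefSeq promoter sequences, 300 bases each, and 289 promoters of 256 genes could be placed by a single shift that another gene nearby shared within 2 bp. On chromosome 8 the nearest placed promoters on either side of Foxc2 belonged to Irf8 (5 positions matched, 0.378 Mb away) and Cyba (9 positions matched, 1.31 Mb away), and both gave a shift of 2523901 bp. With at least 10 matched positions required, the neighbours were Mlycd and Gm51557, with the same shift. Foxc2 was placed by that shift, and distances below run from its first base, in the direction in which the gene is read. The mm9 build itself was not used here.

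The promoters of Cyba and Foxc1 are shown. Cyba gave, together with Irf8 on the other side, the shift that places the locus. Foxc1 is the nearest relative of Foxc2 that was measured. Capitals mark each CG at which a deposited site fell. In Cyba all 9 CG were matched, and in Foxc1 7 of 32. Both are from RefSeq on GRCm38.p6. Cyba lies at chr8:122432891-122433190 on the minus strand, and Foxc1 at chr13:31806396-31806695 on the plus strand.
Cyba: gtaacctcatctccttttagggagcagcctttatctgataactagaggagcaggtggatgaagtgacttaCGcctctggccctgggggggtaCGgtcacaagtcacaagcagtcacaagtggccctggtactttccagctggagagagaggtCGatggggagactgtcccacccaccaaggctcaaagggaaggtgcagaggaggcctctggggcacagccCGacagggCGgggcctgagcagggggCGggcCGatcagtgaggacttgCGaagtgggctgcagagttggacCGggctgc
Foxc1: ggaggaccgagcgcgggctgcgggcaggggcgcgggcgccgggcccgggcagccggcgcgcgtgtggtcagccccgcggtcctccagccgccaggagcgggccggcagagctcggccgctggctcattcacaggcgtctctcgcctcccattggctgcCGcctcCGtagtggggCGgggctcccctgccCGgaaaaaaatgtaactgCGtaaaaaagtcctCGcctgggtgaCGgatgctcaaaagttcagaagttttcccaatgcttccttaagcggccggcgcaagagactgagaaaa

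The sites ran from -1584 bp, before the start of Foxc2, to 1024 bp inside it, and 50 of the 113 were inside the gene, which is 2725 bp long. Foxc2 is an intronless gene, so sites inside it are exonic. The window also held Mthfsd, a gene for a protein with a folate enzyme domain, and part of Fendrr, a long noncoding RNA gene next to Foxf1. Neither had a site. The nearest measured regions were 359 kb away on the Irf8 side and 1280 kb away on the other, so Foxc2 was the one gene of the cluster with values.

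In every sample the locus was divided into a highly methylated upstream part and a partly methylated part around and inside the gene. With a new block of sites starting wherever neighbours lay over 100 bp apart, a division made after the values were seen, there were 5 blocks of 21, 32, 2, 11 and 47 sites. The 2 blocks farthest upstream, 53 sites from -1584 to -484 bp, had a mean of 91.8% in both tumors. They had 91.1%, 92.6% and 91.3% in MFP metastases 1 to 3 and 92.9%, 93.0% and 92.2% in the TVI metastases. All 8 samples thus lay between 91.1% and 93.0%. The MFP metastases overlapped both other groups, while every TVI metastasis lay above both tumors.

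The 58 sites from -130 to 1024 bp were much lower in all 8 samples. Their mean was 60.8% and 61.0% in the tumors, 57.0%, 51.7% and 55.2% in MFP metastases 1 to 3, and 50.5%, 48.3% and 45.2% in TVI metastases 1 to 3. Every tumor lay above every MFP metastasis, and every MFP metastasis above every TVI metastasis. The blocks were set after the values were seen. The order needs metastases below tumors, the difference that led to the choice of the locus, so nothing is read from it. The group means were 60.9% ± 0.139 (SD, n = 2), 54.6% ± 2.71 (SD, n = 3) and 47.98% ± 2.63 (SD, n = 3). A mean near 50% in tissue DNA cannot tell a share of cells from a share of alleles.

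**Figure D1:**
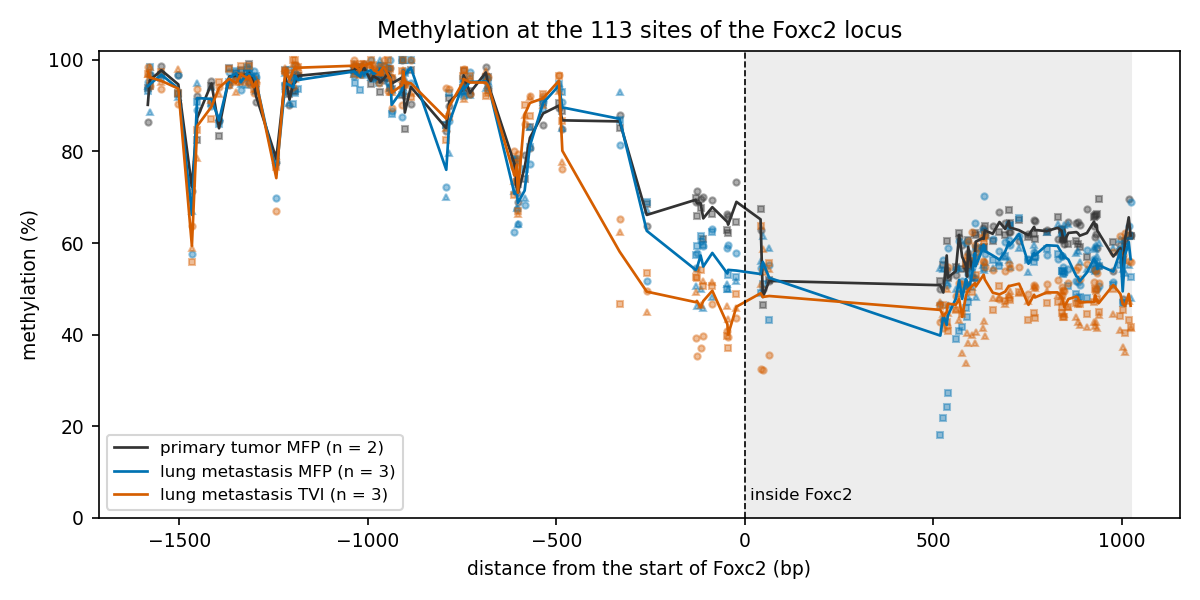
Methylation (%, vertical axis) at each of the 113 sites by distance from the start of Foxc2 (bp, horizontal axis). Points are samples (circle, square and triangle for replicates 1, 2 and 3), lines are group means, and the shaded span is inside the gene. Up to -493 bp the lines mostly run together, and from -332 bp on they part, with the tumors highest and the TVI metastases lowest at most sites inside the gene.

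Over the whole region the values kept the same order. Region means were 75.6% and 75.8% in the tumors, 73.2%, 71.3% and 72.5% in MFP metastases 1 to 3, and 70.5%, 69.3% and 67.4% in TVI metastases 1 to 3. No sample of one group overlapped another group. The mean of both metastasis groups differed from the tumors by -4.98 points (SE 0.825). The differences from the tumors were -3.34 points for the MFP metastases and -6.62 points for the TVI metastases. The TVI minus MFP difference was -3.28 points. Both differences from the tumors use the same 2 tumors. Of 3083 regions in the table, 12 (0.389%) showed every tumor above every MFP metastasis and every MFP metastasis above every TVI metastasis. That order needs metastases below tumors, the difference that led to the choice of the locus, so nothing is read from it. For TVI minus MFP metastases, 241 of the 3083 regions had a more negative difference than Foxc2. For the differences from the tumors, which are tied to the choice of the locus, there were 97 with TVI metastases, 11 with MFP metastases and 47 with all metastases.

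Just upstream of the start, the pair of sites at -332 and -260 bp formed the border between the levels. At -332 bp (position 123639740) methylation was 88.1% and 85.1% in the tumors, 81.5%, 86.9% and 93.0% in the MFP metastases, and 65.2%, 46.7% and 62.5% in the TVI metastases. The TVI metastases lay below all other samples there, while tumors and MFP metastases overlapped. At this site the TVI minus MFP difference was -29.0 points (SE 4.98), the widest difference of the locus in that comparison. At -260 bp (position 123639812) the values were 63.8% and 68.5% in the tumors, 51.8%, 68.9% and 67.3% in the MFP metastases, and 49.6%, 53.6% and 45.0% in the TVI metastases. MFP metastasis 1 lay within the range of the TVI metastases at -260 bp, so those groups overlapped.

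Around the start of the gene, from -130 to 65 bp, the block of 11 sites had means of 65.4% and 62.4% in the tumors, 57.8%, 54.5% and 51.8% in MFP metastases 1 to 3, and 38.4%, 50.8% and 50.3% in TVI metastases 1 to 3. TVI metastasis 1 was lowest and the groups did not overlap. Nothing is read from this order, since it holds the difference that led to the choice of the locus. The difference was -9.19 points between MFP metastases and tumors and -8.20 points between TVI and MFP metastases. The site at -44 bp (position 123640028) carried the widest TVI to MFP difference of this block. It was at 65.9% and 62.2% in the tumors, 59.5%, 52.9% and 50.0% in the MFP metastases and 39.4%, 37.1% and 43.5% in the TVI metastases. The 3 groups were apart at that site. At the 2 sites at 48 and 65 bp, just inside the gene, the MFP metastases were no lower than the tumors on average.

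Inside the gene, from 519 to 1024 bp, the 47 sites had means of 59.8% and 60.7% in the tumors, 56.8%, 51.0% and 55.9% in MFP metastases 1 to 3, and 53.3%, 47.7% and 44.0% in TVI metastases 1 to 3. TVI metastasis 1, the lowest sample around the start, was the highest of its group here and lay above MFP metastasis 2. The difference was -5.62 points between MFP metastases and tumors and -6.28 points between TVI and MFP metastases. MFP metastasis 2 had 22.9% over the 4 sites from 519 to 539 bp, against 44.0% to 54.9% in the other 7 samples. At 519, 536, 539 and 593 bp the TVI mean was above the MFP mean, and at the other 43 sites of the block it was below.

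**Figure D2:**
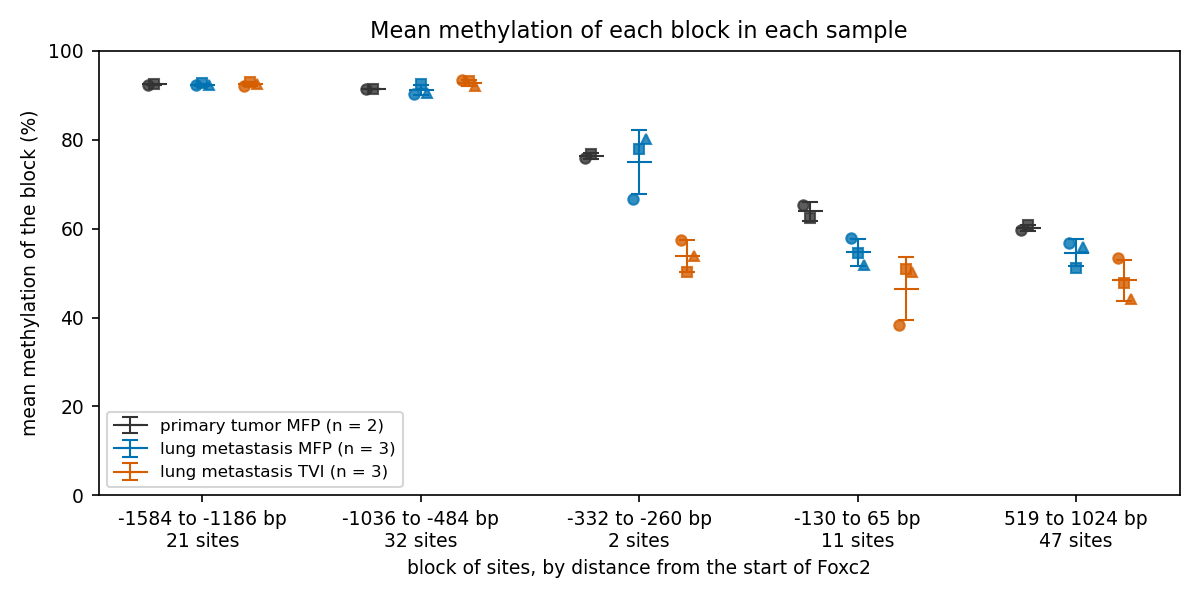
Mean methylation (%, vertical axis) of the 5 blocks of sites (horizontal axis, by distance from the start of Foxc2) in each sample. Points are samples, the horizontal mark and bars are the group mean ± SD. The first 2 blocks sit above 90% in all 8 samples, and in the last 3 the group means step down from tumors to TVI metastases, with an overlap of tumors and MFP metastases from -332 to -260 bp and of MFP and TVI metastases in the block inside the gene.

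Single sites were also compared, with limma moderated tests adjusted over all tested sites. For TVI against MFP metastases, 2 of the 113 sites were called lower (1.77%), at -332 and -44 bp, where 6.53% of all sites were. There were 3 called higher, where 10.4% of all sites were. On this scale the share called lower at the locus was under the background. In a simulated draw, changes of 10 points at single sites were called in 0% of cases. That draw changed far fewer sites than were called over all sites in the data. At this locus, differences of 7.13 points (-1395 bp) and 9.36 points (-570 bp) were called, so the draw sets no lower limit here. Counted by overlap, 22 of 113 sites had every TVI metastasis below every MFP metastasis, against 10.9% of all sites, and 9 had the opposite, against 17.9%. Of these 22, 20 lay among the 58 sites from -130 bp on. The median difference was -2.44 points over the locus and 0.38 over all sites. With quantile normalization, which gives every sample the same distribution of values, limma called 24 sites lower and 2 higher, where 8.11% and 8.49% of all sites were called under that normalization. The share called lower (21.2%) was then above the background, so its side of the background depends on the scaling. The total of 5 became 3 without MFP metastasis 1, MFP metastasis 2 or TVI metastasis 2, and 2 without TVI metastasis 3.

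For TVI metastases against primary tumors, 14 sites were called lower and 3 higher, where 5.24% and 11.4% of all sites were. Of the 14, 7 lay around the start from -130 to -22 bp and 6 inside the gene from 676 to 933 bp, and the last was the -332 bp site. At 57 of the 58 sites from -130 bp on the TVI mean was below the tumor mean. The share of all sites with a lower TVI mean was not counted, so nothing is read from the 57. At 42 of the 58 sites no TVI metastasis reached a tumor. Every TVI metastasis was below both tumors at 12.7% of all sites. The count over the whole locus was 47 below and 17 above, and every TVI metastasis was above both tumors at 26.4% of all sites. The median difference was -5.40 points over the locus and 0.69 over all sites. With quantile normalization, 40 sites were called lower and 0 higher by limma, where 7.13% and 7.41% of all sites were. At an unadjusted limma p under 0.05 there were 48 of the 113 in the main fit and 58 with quantile normalization. The share of all sites at that level was not counted, so nothing is read from either count. The total of 17 became 6 without tumor 1, 5 without tumor 2, and 8 without TVI metastasis 2 or 3.

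For MFP metastases against primary tumors, limma called 0 of the 113 sites in either direction, where 0.00368% of all sites were called lower and 0.0427% higher. At an unadjusted limma p under 0.05 the count was 6 sites, and nothing is read from it, since the share of all sites was not counted. At 55 of the 58 sites from -130 bp on the MFP mean was below the tumor mean. The share of all sites with a lower MFP mean was not counted, so nothing is read from the 55. At 27 of the 58 sites every MFP metastasis was below both tumors, where 8.11% of all sites were. Over the whole locus 30 sites were of that kind and 5 of the opposite one, where 14.5% of all sites were. For all metastases against the tumors, the comparison that led to the choice of the locus, 4 sites were called lower and 1 higher, where 1.62% and 5.12% of all sites were called. Of the 113, 25 and 4 sites had all metastases below or above both tumors, where 2.67% and 7.73% of all sites did. Nothing is read from those counts. Leaving out MFP metastasis 2 or 3, TVI metastasis 2 or 3, or either tumor took the 5 to between 0 and 2.

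The full order, every tumor above every MFP metastasis and these above every TVI metastasis, held at 10 of the 113 sites, where 0.551% of all sites showed it. Group means were in that order at 63 sites, where 12.9% of all sites had it. Since the order needs metastases below tumors, the difference that led to the choice of the locus, nothing is read from these counts. Of the 10 sites, 3 lay at -46, -44 and -22 bp and 7 inside the gene from 676 to 933 bp. None lay in the upstream 53. At neighbouring sites the values come from the same stretches of DNA, so these sites are not independent of each other.

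**Figure D3:**
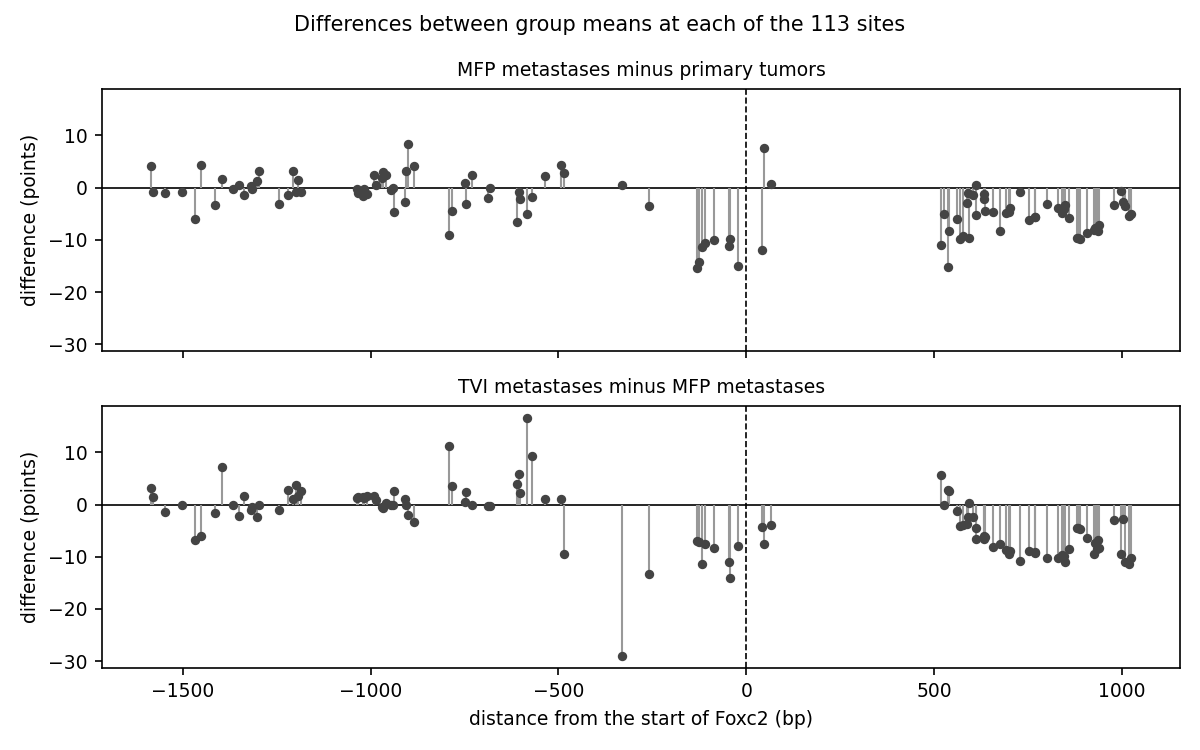
Difference between group means (points, vertical axis) at each of the 113 sites by distance from the start of Foxc2 (bp, horizontal axis), for MFP metastases minus primary tumors (upper) and TVI minus MFP metastases (lower). Both panels lie below 0 at most of the measured sites inside the gene, and the lower one has its lowest point at -332 bp and its highest at -584 bp.

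Upstream of the border the differences between the groups were small at most sites and lay on both sides of 0. The median TVI minus MFP difference was -0.03 points over the 21 sites farthest upstream and 1.06 points over the next 32. The 3 largest positive differences of the locus were nevertheless here. At -584 bp (position 123639488) methylation was 79.1% and 74.0% in the tumors, 68.3%, 76.3% and 69.8% in the MFP metastases and 86.0%, 90.2% and 88.0% in the TVI metastases, a difference of 16.6 points (SE 3.32). The TVI metastases were above all 5 other samples. At -570 bp (position 123639502) TVI metastases were 9.36 points higher, at 87.7% to 92.2% against 77.3% to 85.4% in MFP metastases. At -792 bp (position 123639280) the difference was 11.2 points, and the groups overlapped, with TVI metastases at 82.4% to 93.9% and MFP metastases at 70.0% to 85.7%. The 3 called higher were the sites at -584, -570 and -1395 bp. A few upstream sites were lower than their neighbours in all 3 groups. One of them, at -1467 bp, was the lowest upstream site in both metastasis groups, with a mean of 66.2% in MFP metastases and of 59.4% in TVI metastases, and was at 72.2% in tumors.

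Intermediate methylation in every sample was the feature that set the gene side apart from most of the table. All 8 samples lay from 30% to 75% at 56 of the 113 sites, where 3.57% of all sites did so. Of these, 11 were the sites of the block at the start and 43 were of the block inside the gene. The other 2 lay at -260 bp and in the block farthest upstream. At 42 sites, all in the upstream 53, each sample had 80% or more, where 55.4% of all sites did. No site of the locus was at 20% or less in all samples, where 19.7% of all sites were.

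Foxc1, the closest relative of Foxc2, was almost free of methylation. Over 62 sites of the gene and its flanks of 2 kb, methylation was 1.41% and 1.20% in the tumors, 1.16%, 1.26% and 2.07% in the MFP metastases and 1.48%, 1.29% and 1.32% in the TVI metastases. The 3 groups overlapped. The TVI minus MFP difference was -0.13 points (SE 0.248, limma adjusted p = 0.656 over 695 genes). In the promoter sequence shown above, the 7 measured CG had a mean of 2.03% ± 0.829 (SD, n = 2) in the tumors. For MFP metastases the mean was 2.09% ± 1.65 (SD, n = 3), and for TVI metastases it was 0.97% ± 0.297 (SD, n = 3). No sample showed at Foxc1 the intermediate methylation seen at the start of Foxc2. Of 44 forkhead family genes in RefSeq, 12 could be placed and these were the 2 with sites.

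Genes of epithelial-mesenchymal transition were listed because of the known role of Foxc2. Of 14, 3 could be placed and 2 had sites. Snai1, a repressor of epithelial genes, had 43.4% and 41.4% in the tumors, 44.5%, 44.3% and 44.1% in the MFP metastases and 35.7%, 33.3% and 34.5% in the TVI metastases. The TVI metastases lay below all other samples. The TVI minus MFP difference of Snai1 was -9.79 points (SE 0.693, limma adjusted p = 1.21e-05), where 22.2% of 695 genes were called lower. Between MFP metastases and tumors it differed by 1.86 points the other way (limma adjusted p = 0.149), where 0.288% of genes were called lower and 10.1% higher. Cdh1, which encodes E-cadherin, the adhesion protein of epithelial cells, was higher in TVI than in MFP metastases by 2.33 points (SE 0.210, limma adjusted p = 4.17e-05), where 41.6% of genes were called higher. Its level was 68.9% and 69.2% in the tumors, 70.3% to 70.5% in MFP metastases and 72.6% to 72.9% in TVI metastases, with no overlap. Its difference between MFP metastases and tumors was 1.28 points (limma adjusted p = 0.0191), a call lost under 7 of 12 other settings.

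The vessel list had 1 of 11 genes with sites. Dll4, a Notch ligand of growing vessels, was at 20.8% and 21.2% in the tumors, 21.0% to 21.8% in MFP metastases and 22.5% to 22.6% in TVI metastases. Its rise from MFP to TVI metastases was 1.17 points (SE 0.243, limma adjusted p = 0.00349), where 41.6% of genes were called higher. With quantile normalization the rise was 0.69 points. Of 12 Hedgehog genes, 1 was measured. Sufu, a brake on the pathway, was at 68.3% to 70.3% in all 8 samples and was not called (limma adjusted p = 0.145 for TVI against MFP metastases, a difference of -0.92 points). The call was gained with quantile normalization (-2.25 points, limma adjusted p = 0.00181) and without tumor 1 or tumor 2 (limma adjusted p = 0.0185 in both cases).

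Markers of cell types were read in the same way. Lung epithelium (6 genes), white blood cells (6 genes) and fibroblasts (5 genes) had no marker with sites, so the samples could not be compared for those cells. Both measured endothelial markers were higher in TVI than in MFP metastases, where 41.6% of all 695 genes were called higher. Pecam1, an adhesion protein of endothelium, rose by 8.68 points over MFP metastases (SE 0.564, limma adjusted p = 8.20e-06), and Cdh5, its cadherin, by 4.91 points (SE 0.361, limma adjusted p = 1.40e-05). Of the 3 carcinoma markers measured, the claudin gene Cldn7 was lower in TVI metastases (74.1% to 78.2%) than in MFP metastases (84.3% to 87.6%, limma adjusted p = 0.000228), where 22.2% of genes were called lower, Cdh1 rose as given, and Cldn4 lay at 9.36% to 10.5% over all samples (limma adjusted p = 0.428). These values move between the same groups as Foxc2, and their part in its differences was not tested. Cdh1, Cldn4, Pecam1 and Cdh5 were placed by the shift of promoters on both sides, the other listed genes by their own promoter.

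Over the promoter sequence alone, 5 listed genes were measured, and 4 of them were nearly unmethylated there. No promoter sequence of Foxc2 was available, so its block around the start is not the same measure. The promoter CG of Snai1 averaged 1.92% in tumors, and 0.66% and 1.02% in MFP and TVI metastases, so the lower Snai1 value of the TVI metastases lay outside these CG. Dll4 and Sufu had promoter means from 1.32% to 2.50% in the 3 groups. Cldn7 was the 1 promoter of the 5 that was called between TVI and MFP metastases. Its values were 89.4% and 85.6% in the tumors, 85.8%, 88.3% and 86.8% in the MFP metastases and 55.4%, 49.0% and 49.0% in the TVI metastases. The TVI minus MFP difference was -35.8 points (SE 1.94, limma adjusted p = 1.38e-06 over 289 promoters), where 7.96% of the promoters were called lower. At Foxc2 the block around the start was lower in both metastasis groups than in the tumors. At the Cldn7 promoter the MFP metastases overlapped the tumors.

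**Figure D4:**
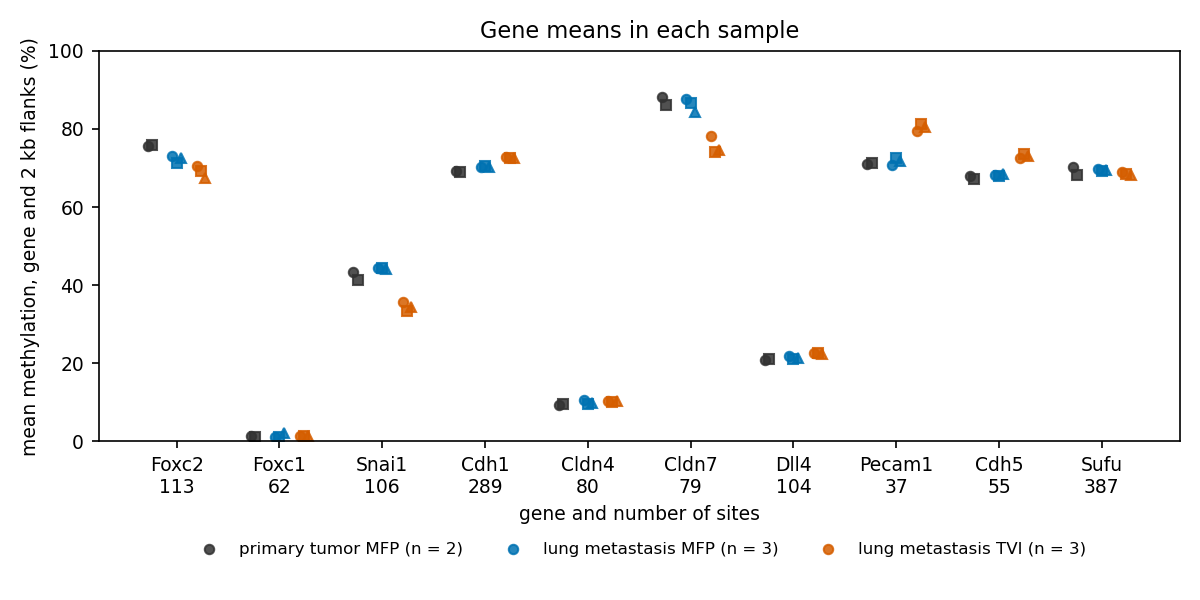
Mean methylation (%, vertical axis) over each gene and its flanks of 2 kb in each sample, with the number of sites under the gene symbol. Points are samples (circle, square and triangle for replicates 1, 2 and 3). Foxc1 lies near 0 in all 8 samples, Foxc2 steps down from tumors to TVI metastases, and the TVI metastases lie below all other samples for Snai1 and Cldn7.

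Another 3 regions elsewhere in the table were picked as the most like Foxc2 in their change across the 8 samples, by the root mean square difference after subtracting the tumor mean. The closest was on chromosome 5 from 3344433 to 3346107 (27 sites, 1.15 points), at Cdk6, a cell cycle kinase. Its tumor mean was 14.2%, and the MFP and TVI metastases had 11.8% and 7.67%, so it shared the change and not the level. The next were on chromosome 4 from 153657026 to 153660199 (55 sites, 1.35 points), at the exchange factor gene Arhgef16, and on chromosome 19 from 4476295 to 4476636 (12 sites, 1.70 points), at Syt12. The median over all other regions was 5.62 points.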

How the data were processed

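The 8 samples were compared in 1 table. The authors deposited 1 table of beta values from bisulfite sequencing, the fraction of calls methylated at each position, per the file headers, shown here as percentages. Trimmomatic, Bismark and mm10 are listed in the submitters' processing notes. Their roles, versions and any coverage filter were not given in the sources used here. No interval can be given for a value, since coverage is unknown. No pair of samples was identical.

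Fractions at the 135914 sites with any variation entered a group-means model in limma (version 3.58.1, R 4.3.3) with a variance trend, two-sided tests and Benjamini-Hochberg adjustment (threshold 0.05). Since separate animals are not stated, a p-value here reflects the variation among these samples alone, possibly technical. Neighbouring sites at most 500 bp apart formed 3083 regions of at least 3 sites. A promoter was placed where at least 5 sites fell on its CG, at least 90% of sites inside it did so, 1 shift within 8 Mb was best, and another gene 10 kb to 20 Mb away shared it. Gene means cover 2 kb flanks in 695 genes with at least 3 sites. Single draws were simulated for TVI against MFP metastases, with changes planted only where methylation was intermediate. For sites, far fewer were changed than were called in the data, so the rates need not carry over. Changes of 10, 20 and 30 points were called at 0%, 24% and 84% of 50 sites each (135913 sites in all). Changes of 2 points were called in 94% of genes (695 genes). Of the calls made, 8.85% were false for sites and 2.87% for genes.

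Named sites were the 3 largest TVI minus MFP differences in each direction. Members and lists were chosen with earlier results of these data known. Blocks, gene means and the shared-shift rule were added after the data were examined.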

Additional observations from a re-analysis of the deposited data

Results flagged for a closer look

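At 5 sites of the Foxc2 locus, limma called a difference between TVI and MFP metastases, with 2 lower and 3 higher in TVI metastases. Over all tested sites, 6.53% were called lower and 10.4% higher. Of the listed genes with sites outside the locus, 6 were also called between both metastasis groups, and Sufu, Cldn4 and Foxc1 were not. TVI minus MFP was 2.33 points for Cdh1, -9.79 for Snai1, 1.17 for Dll4, -10.5 for Cldn7, 8.68 for Pecam1 and 4.91 for Cdh5. Over all 695 genes, 41.6% were called higher and 22.2% lower, so nothing is read from the number of listed genes called.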

How the results depend on the processing

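The Foxc2 region stayed lower in each comparison under all settings tried, but the count of called sites moved. Called sites numbered 5 (TVI against MFP metastases), 17 (TVI metastases against tumors), 0 (MFP metastases against tumors) and 5 (all metastases against tumors). In the same order, leaving out the third, the counts were 26, 40 and 13 with quantile normalization, 19, 33 and 14 without the variance trend, and 11, 41 and 11 over sites with a mean from 5% to 95%. On the logit scale the last count was 3. Beyond the main fit, shares of all sites were counted only for the TVI comparisons with quantile normalization. Nothing is read from the counts of this paragraph under any other setting. Leaving out 1 replicate in turn gave 2 to 5, 5 to 22, 0 to 0 and 0 to 4 sites. The region differences of -3.28, -6.62 and -4.98 points were -0.11, -0.26 and -0.20 on the log2 odds scale. TVI minus MFP was -6.45 as a median over sites and -1.15 and -6.28 for the 2 parts joined at 250 bp. The MFP minus tumor difference of -3.34 was -4.82 with quantile normalization and -3.34 in sites joined at 1000 bp. These are values with no test, and the cause of the shifts was not tested. Same-numbered samples had correlations of deviations from -0.0037 to 0.017. The labels do not say which samples share an animal, so these values cannot tell if the numbers pair them. With the replicate block the counts were 4, 7, 0 and 0. Sufu was called lower in TVI metastases than in tumors with quantile normalization (-2.99 points, limma adjusted p = 0.00082). Without tumor 2 this difference was -1.82 points, with the sign of the main fit. That fit has 1 tumor, so only the size is given. Gene differences that changed sign were not called in the main fit or in the fit that changed the sign. With quantile normalization they were Sufu -0.74, Pecam1 -0.64 and Cdh5 -0.87 (MFP minus tumor), Cldn4 -0.15 (TVI minus MFP) and Foxc1 -0.24 (TVI minus tumor), the last -0.072 with the replicate block. Leaving out 1 replicate gave Sufu -1.82 to 0.26 (TVI minus tumor) and -0.90 to 1.19 (MFP minus tumor), Cldn7 -2.11 to 0.078 (MFP minus tumor), and Foxc1 -0.30 to 0.16 (TVI minus MFP), -0.044 to 0.17 (TVI minus tumor) and -0.098 to 0.36 (MFP minus tumor). The TVI minus MFP calls of Snai1, Cdh1, Dll4, Cldn7, Pecam1 and Cdh5 held under all 12 settings tried for genes. Depth is unknown, so no limit from it can be given.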
